A study of Mus musculus with 27 samples.

Results

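The choroid plexus genes described here were Ttr, Folr1, Kl, Clic6, Aqp1, Enpp2, Cldn2, Foxj1, Sostdc1 and Htr2c. They were taken from the gene read counts by their symbols, and all 10 were found among 55416 genes. The 27 libraries hold RNA of whole fetal brains, with 3 libraries per group, from 3 mouse strains at gestational day 12 (d12), 15 (d15) or 17 (d17). The strains C57BL/6J and AKR/J are inbred and carry their own Cav1 gene. Cav1-null is the strain B6.Cg-Cav1tm1Mls/J, in which the gene of caveolin 1 is disrupted in every cell on a congenic C57BL/6J background. All fetuses were labelled female, the day of the vaginal plug was day 1, and no group was treated. A congenic line can keep DNA of its donor strain near the targeted gene, and AKR/J differs from C57BL/6J across the genome, so that neither comparison with C57BL/6J isolates a single gene. The labels do not say whether the 3 libraries of a group came from separate litters, so the p-values measure the spread between these libraries.

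The choroid plexus is a fold of epithelium, with a core of blood vessels and stroma, that hangs into the ventricles of the brain and secretes the cerebrospinal fluid. Its epithelium grows out of the roof plate and the hem of the cortex, stops dividing, forms cilia and turns on genes for secretion and transport. In the mouse it appears first in the hindbrain, then in the lateral ventricles and in the roof of the diencephalon. Transthyretin (Ttr), which carries thyroid hormone and retinol, is its best known product, but Ttr is also made by the liver and by the endoderm of the yolk sac. No other member is restricted to this epithelium either, since Foxj1 acts in every cell type with motile cilia, Htr2c is used by neurons, and Aqp1 and Enpp2 are expressed in vessels, meninges or oligodendrocytes. In RNA of a whole brain, fewer cells of a type and less RNA per cell cannot be told apart.

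Levels are given as CPM, a gene's reads scaled to a total of 1000000 on all genes. Library totals ran from 26363697 to 39759702 reads on genes. Cav1 (chromosome 6, 17306140 to 17341451, GRCm39) was at 0 to 0.551 CPM in the Cav1-null libraries and at 6.36 to 43.0 CPM in the other strains. Replicates were never alike to within sampling noise, since the chi-square statistic per degree of freedom of a pair of libraries of 1 group was 5.5 to 339.8.

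Some libraries stood apart in the marker genes of other tissues. The summed level of 17 genes of yolk sac endoderm and fetal liver was 1351, 261 and 31.2 CPM in replicates 1 to 3 of AKR/J d12 and at most 36.8 CPM in all other libraries. In AKR/J d12, 16 of these 17 genes had reads, and Apoc2 was at 0. Afp, the fetal protein of yolk sac and liver, was at 707, 144.5 and 10.9 CPM there and at most 5.82 CPM elsewhere. The same 3 libraries had 35610 to 136200 CPM of 10 erythroid genes, all of them with reads, against 620.6 to 19330 CPM elsewhere. Hbb-y, an embryonic globin, averaged 66203 CPM there, against 1678 CPM in C57BL/6J d12 and 3225.5 CPM in Cav1-null d12. The summed level of 11 genes of meninges and stroma was highest in replicate 1 of C57BL/6J d15 (4834 CPM), replicate 2 of AKR/J d15 (1358 CPM) and replicate 3 of Cav1-null d12 (1213 CPM). Replicate 2 of AKR/J d15 also had the highest sum of 12 eye genes, 226 CPM against at most 45.6 CPM in the other libraries. Tyrp1, an enzyme of pigment cells, was at 1.60 CPM in it, also the highest of the 27 libraries. The part of these tissues in the results was not tested.

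**Figure D1:**
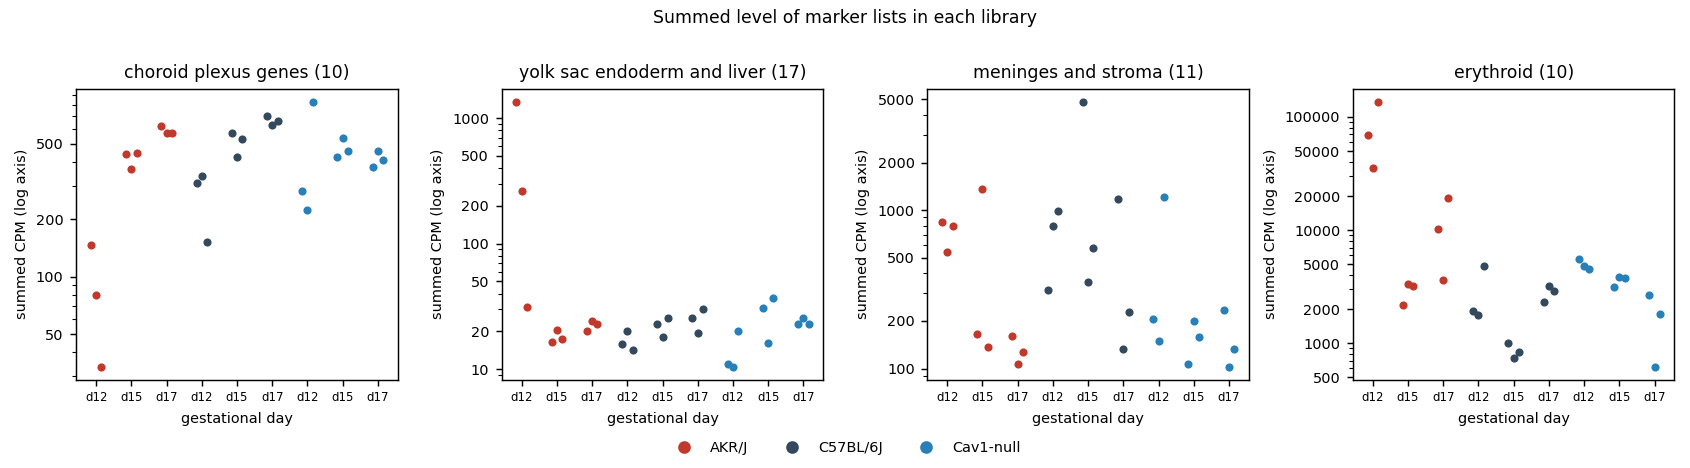
Summed CPM of 4 lists of genes (log axes) in each of the 27 libraries, grouped by strain (colour) and gestational day (x axis), with 1 point per library. The 3 AKR/J d12 libraries were lowest in the choroid plexus genes (33.7 to 146.7 CPM) and highest in the erythroid genes, and 2 of them stood far above all others in the yolk sac and liver genes.

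The transcripts behind these counts are shown by the junctions of Htr2c, the serotonin receptor gene, whose level varied most among the receptors. Htr2c (ENSMUSG00000041380, plus strand, chromosome X, 145745509 to 145980286) has 6 exons in its canonical transcript. Of its 5 introns, 4 were listed in the junction table, and each of these is flanked by GT and AG. The joined exon ends are given below from GRCm39, 15 bases on each side and 5′ to 3′, with the last base of the upstream exon and the first base of the downstream exon in capitals.
Htr2c intron 2 (chrX:145764602-145855380, both ends in the 5′ untranslated region): ctttccaaattaatTGggatgaaacaatac
Htr2c intron 3 (chrX:145855484-145858726, coding): ggtgcgctcactccTTgtgcacctaattgg
Htr2c intron 4 (chrX:145859044-145952565, coding): ttgcaattctttatGAttatgtctggcctt
Htr2c intron 5 (chrX:145952767-145976764, coding): gggcaatatcaataGGagtttcagttccta

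The promoter table of RefSeq (GRCm38.p6) held 4 of the 10 members, Aqp1, Cldn2, Htr2c and Kl. The 250 bases before the start of Cldn2 and Htr2c are shown, the former for its TATA box and the latter beside its junctions, with the letters TATAAA of the TATA box in capitals.
Cldn2 (chrX:139800558-139800807, plus strand): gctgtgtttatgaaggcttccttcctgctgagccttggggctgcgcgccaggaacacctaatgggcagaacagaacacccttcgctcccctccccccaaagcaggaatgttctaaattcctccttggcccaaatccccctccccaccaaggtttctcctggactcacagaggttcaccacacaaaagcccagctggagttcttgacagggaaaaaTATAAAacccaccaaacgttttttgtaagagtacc
Htr2c (chrX:146962263-146962512, plus strand): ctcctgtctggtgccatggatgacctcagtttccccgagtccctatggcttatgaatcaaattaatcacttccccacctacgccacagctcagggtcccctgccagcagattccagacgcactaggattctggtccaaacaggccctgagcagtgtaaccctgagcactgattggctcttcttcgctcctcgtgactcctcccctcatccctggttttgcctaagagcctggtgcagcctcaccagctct
TATAAA, sought on both strands, begins 35 bases before the start of Cldn2 and was found in no other of the 4 windows. It occurred in 12.4% of 32851 promoter windows of the same length. TAATCC, the core that OTX factors bind, occurred in 6.25% of the windows, and GTAAACA, the core of forkhead factors such as FOXJ1, in 3.17%. Neither was found in the windows of the 4 members.

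To compare the members with each other, levels were divided by the length of the canonical transcript (CPM per kb). On this scale Ttr was far above the rest, with a median of 275 over the 9 group means and 7.52 to 526 over the libraries. Enpp2 followed with a median of 6.13 (1.59 to 9.72) and Foxj1 with 4.05 (0.992 to 10.6). Folr1, Sostdc1 and Htr2c had medians of 2.77, 2.76 and 2.56, and Aqp1 and Clic6 had 1.86 and 1.85. Cldn2 and Kl were lowest, with 0.359 and 0.322. The libraries of neighbours in this order overlapped in every case except Ttr and Enpp2, which overlapped only through replicate 3 of AKR/J d12. Of all reads on the 10 members, Ttr took 29.3% to 80.8% in AKR/J d12, 53.4% to 76.8% in C57BL/6J d12 and at least 74.1% in every other library.

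**Figure D2:**
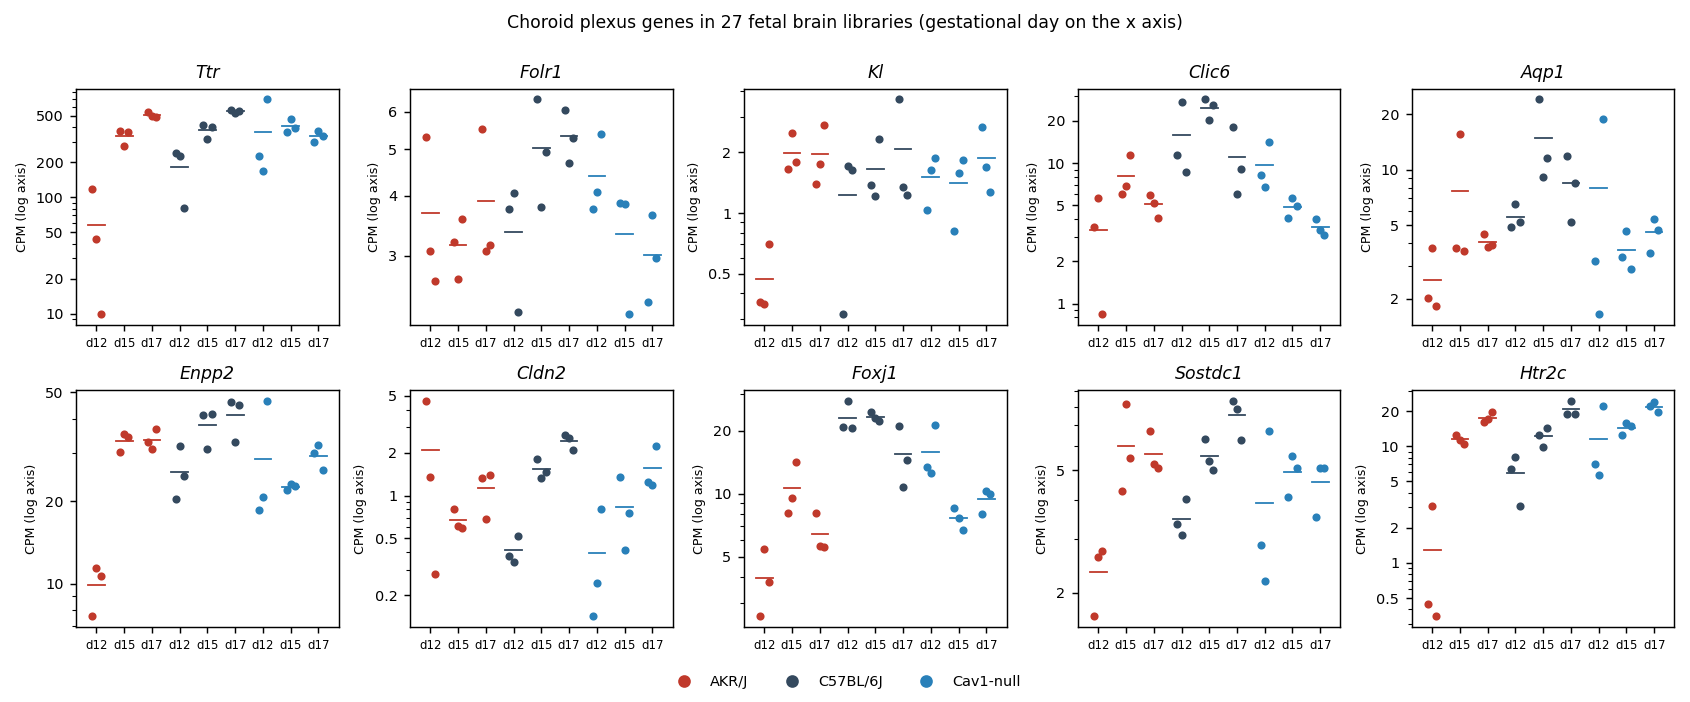
CPM (log axes) of the 10 genes in the 27 libraries by strain (colour) and gestational day (x axis), with points for libraries and a short line at the mean of the 3 libraries of a group. The group means of all members except Cldn2 and Folr1 were lowest in AKR/J d12, and those of Clic6 and Foxj1 were highest in C57BL/6J on d12 and d15.

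Ttr (ENSMUSG00000061808, chromosome 18, 20797253 to 20807467) is the main secreted protein among the members. In AKR/J it was at 119, 43.6 and 9.90 CPM on d12, at 370.5, 275.0 and 363.8 CPM on d15 and at 539, 495 and 486 CPM on d17. The AKR/J days did not overlap, and on d12 the order of the 3 libraries was that of their yolk sac and liver genes (1351, 261 and 31.2 CPM). C57BL/6J libraries had 238, 228 and 81.3 CPM on d12, 420, 318 and 401 CPM on d15 and 566, 532 and 547.5 CPM on d17, again without overlap between days. Cav1-null libraries had 224, 169 and 692 CPM on d12, 365, 468 and 394 CPM on d15 and 298, 372 and 334 CPM on d17. Replicate 3 of Cav1-null d12 was thus the highest of all 27 libraries, while its 2 partners were below every Cav1-null library of the later days.

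Enpp2 (ENSMUSG00000022425, minus strand, chromosome 15, 54701324 to 54816288) encodes autotaxin, the secreted enzyme that makes lysophosphatidic acid. It was lowest in AKR/J d12, with 7.61, 11.4 and 10.7 CPM, and 30.3, 35.3 and 34.2 CPM on d15 of this strain. On d17 AKR/J had 33.5 ± 2.80 CPM (mean ± SD, n = 3). C57BL/6J had 20.4, 31.8 and 24.7 CPM on d12, 41.3, 31.1 and 41.7 CPM on d15 and 45.9, 33.0 and 45.1 CPM on d17, and its days overlapped. Cav1-null libraries had 18.6, 20.7 and 46.4 CPM on d12, 22.0, 23.0 and 22.8 CPM on d15 and 29.9, 32.0 and 26.0 CPM on d17.

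Sostdc1 (ENSMUSG00000036169, chromosome 12, 36364137 to 36368451), a secreted inhibitor of BMP and Wnt signals, stayed between 1.68 and 8.38 CPM. Its C57BL/6J libraries had 3.34, 3.08 and 4.03 CPM on d12, 6.29, 5.35 and 5.001 CPM on d15 and 8.38, 7.91 and 6.28 CPM on d17. The d12 libraries lay below all later ones in C57BL/6J and in AKR/J (1.68 to 2.73 CPM on d12 and 4.28 to 8.22 CPM on d15). In Cav1-null mice replicate 3 of d12, with 6.72 CPM, exceeded all libraries of d15 and d17.

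Among the receptors, Htr2c, the serotonin receptor 2C, changed most over time. Its reads were 0.448, 3.07 and 0.350 CPM in AKR/J d12, 12.6, 11.4 and 10.5 CPM on d15 and 16.1, 17.1 and 19.5 CPM on d17. C57BL/6J had 6.39, 8.08 and 3.08 CPM on d12, 12.4, 9.82 and 14.4 CPM on d15 and 18.9, 24.4 and 19.0 CPM on d17. Both strains showed no overlap between consecutive days. Cav1-null libraries had 6.99, 5.61 and 21.9 CPM on d12, 12.6, 15.7 and 14.9 CPM on d15 and 22.0, 24.0 and 19.5 CPM on d17. Here only replicate 3 of d12 stood among the d17 libraries.

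Folr1 (ENSMUSG00000001827, minus strand, chromosome 7, 101507537 to 101520014), the folate receptor that moves folate into the cerebrospinal fluid, varied least, from 2.26 to 6.36 CPM. Its group means ran from 3.01 ± 0.631 CPM in Cav1-null d17 to 5.33 ± 0.686 CPM in C57BL/6J d17. Kl (ENSMUSG00000058488, chromosome 5, 150876072 to 150917284), the co-receptor Klotho, was low throughout, with 10 to 113 reads per library. It was at 0.353 to 0.699 CPM in AKR/J d12 and at 1.65 to 2.48 CPM in AKR/J d15, without overlap, while its days overlapped in the other strains.

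Among channels and barrier proteins, Clic6 (ENSMUSG00000022949, chromosome 16, 92282624 to 92338739), a protein of the chloride intracellular channel family, was lower in AKR/J and Cav1-null than in C57BL/6J by its mean on every day. C57BL/6J had 11.5, 27.3 and 8.62 CPM on d12, 28.4, 20.4 and 25.7 CPM on d15 and 17.9, 5.99 and 9.11 CPM on d17. AKR/J had 3.53, 5.68 and 0.839 CPM on d12, 5.99, 6.90 and 11.5 CPM on d15 and 5.92, 5.23 and 4.09 CPM on d17. Cav1-null mice had 8.24, 6.80 and 14.0 CPM on d12, 4.06, 5.64 and 4.96 CPM on d15 and 4.03, 3.36 and 3.07 CPM on d17. The d17 libraries lay below those of d15 in all 3 strains.

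Aqp1 (ENSMUSG00000004655, chromosome 6, 55313068 to 55325540), the water channel of the apical membrane, was at 24.1, 9.13 and 11.6 CPM in C57BL/6J d15, above the 4.91, 6.51 and 5.21 CPM of d12. Its highest libraries outside C57BL/6J were replicate 3 of Cav1-null d12 (18.9 CPM, against 3.21 and 1.64 CPM in its partners) and replicate 2 of AKR/J d15 (15.6 CPM, against 3.77 and 3.61 CPM). These 2 libraries and replicate 1 of C57BL/6J d15, the highest of all for Aqp1, were also the highest of their groups in the genes of meninges and stroma. Cldn2 (ENSMUSG00000047230, chromosome X, 138701480 to 138712135), a claudin that makes tight junctions permeable to cations and water, was rare, with 4 to 164 reads per library. In C57BL/6J it was at 0.378, 0.343 and 0.524 CPM on d12, 1.81, 1.32 and 1.45 CPM on d15 and 2.65, 2.53 and 2.07 CPM on d17, without overlap between days. In AKR/J d12 it was at 4.59, 1.34 and 0.280 CPM, in the order of the yolk sac and liver genes of these libraries.

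Foxj1 (ENSMUSG00000034227, minus strand, chromosome 11, 116221530 to 116226225), the transcription factor that drives the genes of motile cilia, was the only transcription factor among the members. C57BL/6J had 20.9, 27.8 and 20.7 CPM on d12, 24.6, 23.0 and 22.4 CPM on d15 and 21.1, 10.8 and 14.5 CPM on d17. AKR/J had 2.60, 5.43 and 3.81 CPM on d12, 8.08, 9.55 and 14.2 CPM on d15 and 8.10, 5.65 and 5.58 CPM on d17. Cav1-null mice had 13.4, 12.6 and 21.4 CPM on d12, 8.57, 7.70 and 6.75 CPM on d15 and 8.03, 10.3 and 10.02 CPM on d17. From d12 to d15 all AKR/J libraries thus rose above and all Cav1-null libraries fell below those of the earlier day.

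The changes between days were tested within each strain with edgeR's quasi-likelihood test after TMM scaling, and a gene was called where the p adjusted by Benjamini and Hochberg over all tested genes was below 0.05. From d12 to d15, the early phase, AKR/J had 3 called members of 10, all higher on d15, beside 28.9% of all genes called and 14.8% called higher. All d15 libraries lay above those of d12 for 7 members, beside 36.3% of all genes. Htr2c rose by 2.91 on the log2 scale (SE 0.62, adjusted p = 0.0109), Enpp2 by 1.27 (SE 0.20, adjusted p = 0.00394) and Foxj1 by 1.00 (SE 0.31, adjusted p = 0.0438). The median log2 fold change of the 10 members was 1.08, against 0.02 for all genes. With library sizes alone, the scale of the CPM values, the median of all genes was 0.46, and rises in CPM include this shift. With library sizes alone Ttr, Kl and Sostdc1 were called higher as well, beside 24.1% of all genes, and 74.72% of all calls were then higher, against 51.37% with TMM. The call of Foxj1 was lost without any 1 of the 6 libraries (adjusted p = 0.0547 to 0.184). Enpp2 and Htr2c kept theirs, with log2 fold changes of 1.15 to 1.46 and of 2.54 to 4.11. Without replicate 1 of d12, the library highest in yolk sac and liver genes, Ttr was called higher too.

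From d15 to d17, the late phase, Ttr rose by 0.63 (SE 0.13, adjusted p = 0.0108) and Htr2c by 0.66 (SE 0.14, adjusted p = 0.0120) in AKR/J in the edgeR test. These were 2 of the 10 members, beside 22.1% of all genes called and 11.6% called higher. They were also the 2 members whose d17 libraries all lay above those of d15, beside 18.8% of all genes, and Clic6 was the 1 member whose d17 libraries all lay below, beside 23.2%. The median change of the members was 0.05. Neither Ttr nor Htr2c was called without replicate 2 of d17 (adjusted p = 0.0556 for Ttr and 0.0586 for Htr2c), and Htr2c was not called without replicate 3 of d17 (adjusted p = 0.0684). In 1 edgeR model of all 27 libraries neither was called (adjusted p = 0.549 and 0.393), beside 10.2% of all genes.

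C57BL/6J had 3 members that were called higher on d15 than on d12, beside 14.9% of all genes called and 7.08% called higher. For 5 members all d15 libraries lay above those of d12, beside 20.4% of all genes. Cldn2 rose by 1.93 (SE 0.31, adjusted p = 0.0202), Aqp1 by 1.47 (SE 0.37, adjusted p = 0.0418) and Sostdc1 by 0.72 (SE 0.19, adjusted p = 0.0479) in the edgeR test. The median change was 0.70 for the members and -0.04 for all genes. No member was called without replicate 1 of d12 or without any 1 of the d15 libraries, beside 0% to 1.67% of all genes in these fits, and 5 were called higher without replicate 2 of d12, beside 29.8% of all genes called in that fit. In 1 model of all 27 libraries the calls of Aqp1 and Sostdc1 were lost. With a block for replicate numbers none of the members was called, beside 0% of all genes. Between d15 and d17 edgeR called none of the 10 members in C57BL/6J, beside 13% of all genes. The libraries of 3 members (Ttr, Cldn2 and Htr2c) lay higher without overlap, beside 25.5% of all genes, and those of 2 (Clic6 and Foxj1) lower, beside 15.8%. DESeq2 called Htr2c higher and Clic6 lower there, beside 23% of all genes. Htr2c was nearest to the threshold in edgeR (log2 fold change 0.63, SE 0.18, adjusted p = 0.0567, unadjusted p = 0.00827).

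Cav1-null mice had 2 called members from d12 to d15, both lower on d15 and both without overlap of libraries. Of all genes 23.4% were called, 11.8% were called lower and 20.5% lay lower without overlap. Foxj1 fell by 1.05 (SE 0.21, adjusted p = 0.00767) and Clic6 by 0.99 (SE 0.27, adjusted p = 0.0285) in the edgeR test. Replicate 3 of d12 held 829.7 CPM of the 10 genes together, against 282.5 and 224.6 CPM in its partners. Without it, 6 members were called, beside 35.9% of all genes, with Ttr, Cldn2, Sostdc1 and Htr2c higher and Clic6 and Foxj1 lower on d15. Without replicate 1 of d12 or any 1 of the d15 libraries only Foxj1 was called, beside 11.2% to 14.3% of all genes, and Clic6 was also lost in 1 model of all 27 libraries (adjusted p = 0.182 in edgeR).

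Late in Cav1-null mice, Htr2c rose by 0.60 (SE 0.12, adjusted p = 0.00228) and Enpp2 by 0.37 (SE 0.10, adjusted p = 0.0142) in the edgeR test. Ttr fell by 0.29 (SE 0.10, adjusted p = 0.0384), although the libraries of the 2 days overlapped. These were 3 of the 10 members, beside 27.3% of all genes called, 14.5% called higher and 12.8% called lower. Libraries did not overlap for Enpp2 and Htr2c, which were higher (20.9% of all genes), and for Clic6, which was lower (20.3%). Ttr was not called without any 1 of 4 libraries, replicates 2 and 3 of d15 and replicates 1 and 3 of d17 (adjusted p = 0.0571 to 0.243). Enpp2 was not called without replicate 1 of d15 or replicate 2 of d17. In 1 edgeR model of all 27 libraries none of the 3 was called (adjusted p = 0.523 for Htr2c, 0.475 for Enpp2 and 0.852 for Ttr), beside 3.56% of all genes.

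**Figure D3:**
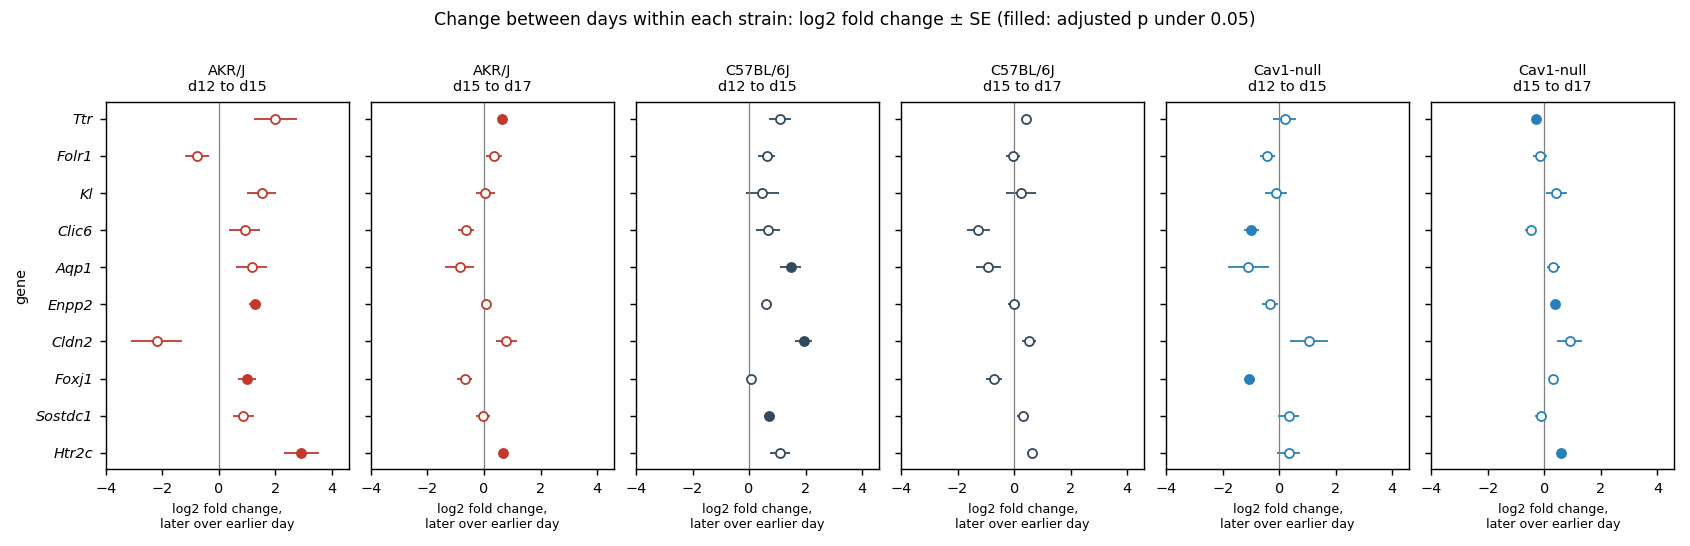
Log2 fold changes of the later over the earlier day with their standard errors (x axes) for the 10 genes (y axis) in 6 comparisons within strains, from edgeR with 3 libraries a day. Filled points passed an adjusted p of 0.05. Htr2c is to the right of 0 in all 6, while Foxj1 and Clic6 are to the right for AKR/J and to the left for Cav1-null mice from d12 to d15.

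The strains were then compared with C57BL/6J on each day. The comparisons of AKR/J and of Cav1-null with C57BL/6J on a day share the same 3 C57BL/6J libraries. On d12, 4 members were called between AKR/J and C57BL/6J, beside 28.6% of all genes. The share of all genes called higher in AKR/J was 14.5% and that called lower 14.1%. In CPM all AKR/J libraries lay below those of C57BL/6J for 6 members, beside 33.2% of all genes. On this scale the median of all genes was -0.38, and Sostdc1, 1 of the 6, had a fitted log2 fold change of -0.13 and was not called. Foxj1 was 4.49-fold lower in AKR/J (log2 fold change -2.17, SE 0.27, adjusted p = 0.0115), Clic6 3.79-fold lower (-1.92, SE 0.62, adjusted p = 0.0474) and Enpp2 1.92-fold lower (-0.94, SE 0.26, adjusted p = 0.0310) in the edgeR test. Cldn2 was called higher in AKR/J (log2 fold change 2.86, SE 0.92, adjusted p = 0.0474) with libraries that overlapped, and without replicate 1 of AKR/J it was at 1.12 (adjusted p = 0.298). Ttr and Foxj1 were the members called without that library, both lower in AKR/J, beside 6.8% of all genes. No member was called without replicate 2 of C57BL/6J d12, beside 0.122%. Clic6 (log2 fold change -2.27 to -1.24) and Enpp2 (-1.14 to -0.74) kept their calls only without replicate 3 of C57BL/6J, and lost them without any 1 of the other 5 libraries. Cldn2 was lost without replicate 1 of AKR/J or any 1 of the C57BL/6J libraries. In the same comparison 6 of 8 endothelial genes (median log2 fold change -1.18), 3 of 11 ependymal and astroglial genes and 2 of 9 oligodendrocyte genes were lower in AKR/J. The lists of erythroid genes (9 of 10) and of yolk sac and liver (7 of 10 tested) were higher, as were 2 of 11 genes of meninges and stroma, and 1 erythroid gene was lower. Their part in the differences of the members was not tested.

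Between Cav1-null and C57BL/6J on d12, edgeR called none of the 10 members and 0 of all 19475 tested genes (0%), of which 4309 had an unadjusted p under 0.05. DESeq2 called none of the members either, and 2044 of all genes. Foxj1 was the member with the lowest unadjusted p (0.0201, log2 fold change -0.65, adjusted p = 0.156 in edgeR).

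On d15, 4 members were called lower in AKR/J than in C57BL/6J, beside 22.3% of all genes that were called lower and 41.1% called in either direction. All AKR/J libraries lay below those of C57BL/6J for the same 4 members, beside 20.2% of all genes. Clic6 was 3.41-fold lower (log2 fold change -1.77, SE 0.26, adjusted p = 0.00156), Cldn2 2.54-fold (-1.34, SE 0.27, adjusted p = 0.00601), Foxj1 2.46-fold (-1.30, SE 0.21, adjusted p = 0.00229) and Folr1 1.78-fold (-0.83, SE 0.24, adjusted p = 0.0263). Clic6, Cldn2 and Foxj1 were called without any 1 of the 6 libraries, while Folr1 was lost without replicates 1 and 2 of AKR/J d15 and replicates 1 and 3 of C57BL/6J d15 (adjusted p = 0.0682 to 0.0914).

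Cav1-null mice differed from C57BL/6J on d15 in 6 members, all lower, beside 31.8% of all genes that were called lower and 58.6% called in either direction. Without overlap of libraries 4 members were lower, beside 26.9% of all genes. Clic6 was 5.74-fold lower (log2 fold change -2.52, SE 0.16, adjusted p = 4.61e-07), Aqp1 4.63-fold (-2.21, SE 0.34, adjusted p = 0.000278), Foxj1 3.45-fold (-1.78, SE 0.12, adjusted p = 5.84e-07) and Enpp2 1.91-fold (-0.93, SE 0.11, adjusted p = 3.79e-05). Folr1 (-0.77, SE 0.26, adjusted p = 0.0262) and Cldn2 (-1.05, SE 0.39, adjusted p = 0.0406) were also called, with libraries that overlapped. Clic6, Aqp1, Foxj1 and Enpp2 kept their calls without any 1 of the 6 libraries, among them replicate 1 of C57BL/6J, which was the highest in genes of meninges and stroma. Folr1 was lost without replicate 1 of C57BL/6J d15 or replicate 3 of Cav1-null d15, and Cldn2 without any C57BL/6J library or replicates 2 and 3 of Cav1-null. In 1 model of all 27 libraries Folr1 and Cldn2 were called in neither comparison on d15, and with library sizes alone Folr1 in neither and Cldn2 not in Cav1-null mice. Ttr, Kl, Sostdc1 and Htr2c were not called on d15 in either comparison.

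Markers of other cell types also differed from C57BL/6J on d15. In Cav1-null mice 8 of 11 genes of meninges and stroma (median log2 fold change -1.78), 7 of 8 endothelial genes (-1.37), 7 of 9 oligodendrocyte genes (-1.17) and 8 of 11 ependymal and astroglial genes (-0.9974) were called lower, with a median of -0.85 for the members. Of these lists 0, 1, 2 and 1 genes were called higher, beside 26.8% of all genes. In AKR/J 7 of 8 endothelial genes (-0.95), 6 of 11 ependymal and astroglial genes (-0.63), 4 of 9 oligodendrocyte genes and 1 of 11 genes of meninges and stroma were lower, with a median of -0.59 for the members, and 1 oligodendrocyte gene was higher, beside 18.8% of all genes. Of the 10 erythroid genes 6 were higher and 2 lower in Cav1-null mice (median 1.28), and 7 were higher and 1 lower in AKR/J (1.33). The summed endothelial level ranged over 218.6 to 295.8 CPM in C57BL/6J, whereas AKR/J libraries had 127.7 to 145.7 CPM and Cav1-null libraries 90.1 to 116.3 CPM. The part of these cell types in the strain differences of the members was not tested.

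On d17 none of the members was called by edgeR in either comparison, beside 0.742% of all genes for AKR/J and 0.0491% for Cav1-null mice. DESeq2 called Aqp1, Cldn2 and Foxj1 lower in AKR/J, beside 6.58% of all genes, and Ttr and Clic6 lower in Cav1-null mice, beside 0.236%. Over all genes, 4275 and 1538 had an unadjusted p under 0.05 in edgeR. All 3 libraries lay below those of C57BL/6J for Clic6, Aqp1, Cldn2 and Foxj1 in AKR/J, beside 14.2% of all genes. For Ttr, Folr1, Clic6, Enpp2, Foxj1 and Sostdc1 the same held in Cav1-null mice, beside 6.15% of all genes. The C57BL/6J d17 library replicate 2 decided these counts. Without it, 4 members (Clic6, Aqp1, Enpp2 and Foxj1) were called lower in AKR/J, beside 26.4% of all genes called in that fit, and 6 (Ttr, Folr1, Clic6, Aqp1, Enpp2 and Foxj1) in Cav1-null mice, beside 13.6%. No gene of the meninges, endothelial, oligodendrocyte or ependymal lists was called on d17, while 3 of 10 erythroid genes were higher and 1 lower in AKR/J. The medians of the former lists were -0.93, -0.99, -0.86 and -0.81 in AKR/J (members -0.46) and -0.9963, -0.81, -0.50 and -0.50 in Cav1-null mice (members -0.75). Replicate 1 of C57BL/6J d17 had the highest sums of its group for meninges and stroma (1176 CPM, against 133.0 and 227.4 CPM) and for endothelial genes (294 CPM, against 126.9 and 182.8 CPM). The part of these cell types was not tested.

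**Figure D4:**
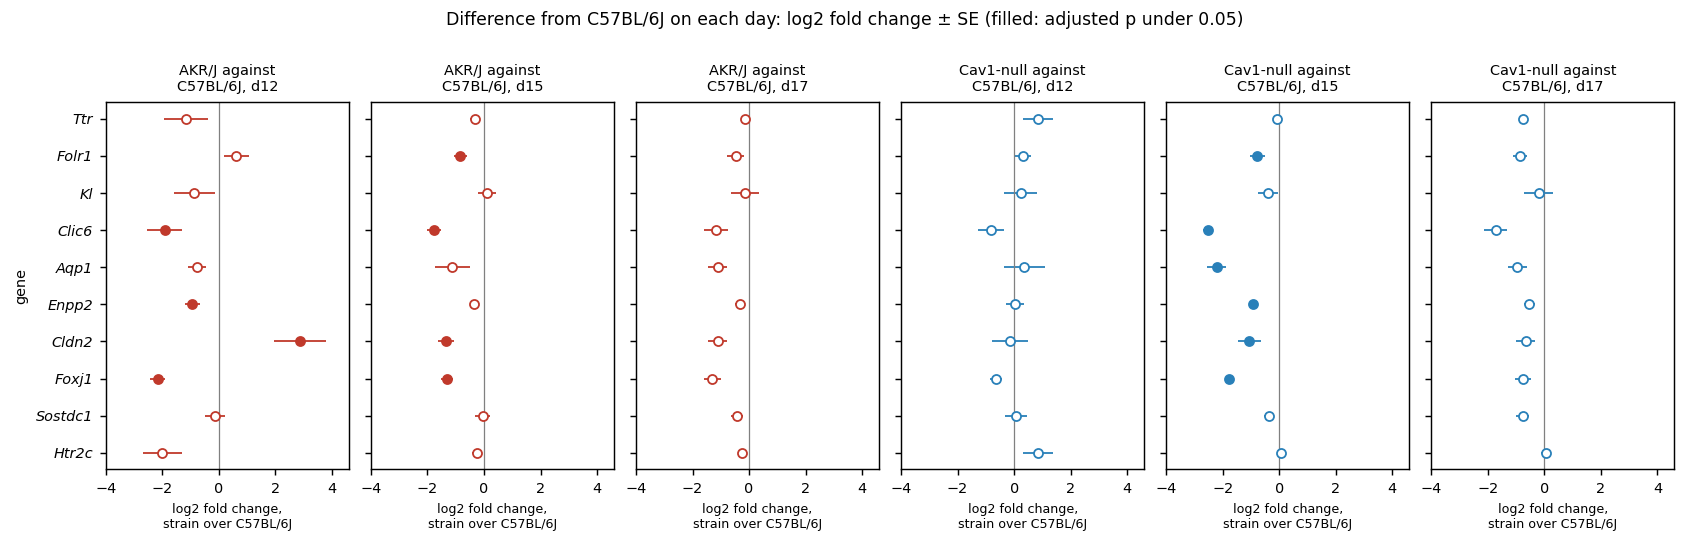
Log2 fold changes of AKR/J (first 3 panels) and Cav1-null mice (last 3 panels) over C57BL/6J with their standard errors (x axes) for the 10 genes (y axis) on d12, d15 and d17, from edgeR. Filled points passed an adjusted p of 0.05. Clic6 and Foxj1 are to the left of 0 in all 6 panels, and no point is filled for Cav1-null mice on d12 or for either strain on d17.

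An interaction of strain and day over 12 libraries tested if strains differed in their change over time. Against C57BL/6J no member was called in AKR/J, beside 0.0711% of all genes in the early phase and 0.00468% in the late phase, or in Cav1-null mice, beside 0.00472% and 0.252%. At an unadjusted p under 0.05, edgeR had 1617 to 4683 genes in these 4 tests. DESeq2 called Clic6 and Foxj1 lower early in Cav1-null mice against C57BL/6J (2.44% of all genes), Ttr lower and Foxj1 higher in the late phase (6.7%), and Cldn2 lower in the early phase of AKR/J (4.83%). AKR/J and Cav1-null mice were compared directly after Clic6 and Foxj1 had been seen to move in opposite directions. Early, 3 members were called there, all with a higher value in AKR/J, beside 14.7% of all genes called and 7.86% called higher. The difference in log2 fold change was 2.02 for Foxj1 (SE 0.37, adjusted p = 0.00643), 1.58 for Enpp2 (SE 0.37, adjusted p = 0.0154) and 2.53 for Htr2c (SE 0.78, adjusted p = 0.0477). For Clic6 it was 1.87 (SE 0.64, adjusted p = 0.0687). Enpp2 and Foxj1 were called without any 1 of the 12 libraries, while Htr2c was lost without replicate 3 of Cav1-null d12 (1.75, adjusted p = 0.107) and without 9 of the other 11 libraries. The difference of Htr2c was 1.75 to 3.82 over these fits. Late, Ttr alone was called by edgeR, with a difference of 0.91 (SE 0.17, adjusted p = 0.0252), beside 2.13% of all genes called and 1.48% called higher, and it was lost without any 1 of 6 libraries and in 1 model of all 27 libraries (adjusted p = 0.803).

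Other genes of the epithelium were read from a list of 45 genes of transport and secretion. In the early phase 12 rose and 5 fell in AKR/J, 11 rose and 3 fell in C57BL/6J, and 6 rose and 7 fell in Cav1-null mice, of 43 or 44 tested. Of all genes 14.8% rose and 14% fell early in AKR/J, 7.08% and 7.8% in C57BL/6J, and 11.6% and 11.8% in the Cav1-null strain. The largest called rise in AKR/J and C57BL/6J was that of Tmem72, a membrane protein of the choroid plexus epithelium. Tmem72 had no reads in any AKR/J d12 library and 6.13, 5.27 and 5.67 CPM on d15, which is at least 57.9-fold higher with 3 reads per library set as the floor for a count of 0. In C57BL/6J it rose from 0.945, 1.20 and 0.197 CPM to 10.6, 8.34 and 5.65 CPM (log2 fold change 3.41, SE 0.57, adjusted p = 0.0206 in edgeR). In the Cav1-null d12 libraries it was at 0.571, 0.0607 and 3.82 CPM, with the highest value again in replicate 3. Among called genes the early fall was largest for Wfdc2, a secreted protease inhibitor, in AKR/J (-2.26, SE 0.56, adjusted p = 0.0183) and the Cav1-null strain (-2.79, SE 0.38, adjusted p = 0.00164). Car14, a carbonic anhydrase, had the largest called early fall in C57BL/6J (-1.12, SE 0.16), where Wfdc2 was at -1.66 and not called (adjusted p = 0.0728 in edgeR). Cldn3, another claudin, had the largest called early rise in Cav1-null mice (2.18, SE 0.51, adjusted p = 0.0164).

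Late, the prolactin receptor gene Prlr had the largest rise of this list in every strain, by 1.54 (SE 0.23) for AKR/J, 1.85 (SE 0.30) for C57BL/6J and 1.44 (SE 0.15) for Cav1-null mice (adjusted p = 0.00291, 0.0118 and 1.49e-05 in edgeR). Of the 45 genes, 6 rose and 6 fell in AKR/J, 4 rose and 2 fell in C57BL/6J, and 8 rose and 5 fell in Cav1-null mice. Of all genes 11.6% rose and 10.4% fell late in AKR/J, 7.46% and 5.58% in C57BL/6J, and 14.5% and 12.8% in the Cav1-null strain. Sulf1, a sulfatase of the cell surface, had the largest called fall in AKR/J and C57BL/6J (-1.52 and -1.48), while Wfdc2 was at -1.86 in AKR/J and not called (adjusted p = 0.0655 in edgeR). The median change of the list was between -0.20 and 0.43 in the 6 comparisons, with medians of all genes between -0.04 and 0.03.

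A list of 26 genes held patterning genes of the roof plate and hem, the source of the epithelium. Of these, 9 fell early in AKR/J, 8 early in C57BL/6J and 16 early in the Cav1-null strain, beside 14%, 7.8% and 11.8% of all genes, and none rose. In the late phase 12 fell in AKR/J, 13 for C57BL/6J and 6 among the Cav1-null libraries, where Ttyh1 rose (0.39, SE 0.08), beside 10.4%, 5.58% and 12.8% of all genes that fell. The medians were -0.95, -0.73 and -1.18 in the early phase and -0.80, -0.78 and -0.20 in the late phase, in the order AKR/J, C57BL/6J and Cav1-null. Msx2, a homeobox target of BMP signals, had the largest called fall from d12 to d15 in AKR/J (-3.05, SE 0.64) and Cav1-null mice (-4.24, SE 1.18), and Rspo1, an enhancer of Wnt signals, in C57BL/6J (-2.35, SE 0.35). Msx2 was at 1.32, 0.668 and 17.55 CPM in Cav1-null d12 and at 0.149, 0.412 and 0.431 CPM on d15, so that replicate 3 of d12 carried most of its fall. In the late phase the largest called falls were those of the ligand genes Wnt1 in AKR/J (-3.19) and Wnt8b in C57BL/6J (-2.14), and of Rspo3 in Cav1-null mice (-1.37).

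Genes of multiciliation, a list that includes other regulators besides genes of the cilium itself, followed no single direction. Of 34 genes, 4 rose early in AKR/J, 7 fell early in C57BL/6J, and in the Cav1-null strain 1 rose and 8 fell early, of 32 or 33 tested. The shares of all genes were 14.8% higher in AKR/J, 7.8% lower in C57BL/6J, and 11.6% higher and 11.8% lower in the Cav1-null strain. In the late phase 9 rose and none fell in Cav1-null mice, while 2 rose and 1 fell in AKR/J and 3 rose and 4 fell in C57BL/6J, against the late shares given above. Rsph4a, a radial spoke protein, had the largest called early rise in AKR/J (2.68, SE 0.55, adjusted p = 0.00953). Foxn4, a transcription factor, had the largest called early fall in C57BL/6J (-2.16, SE 0.58) and Cav1-null mice (-3.11, SE 0.66). Ccdc39, a gene of axoneme assembly, rose by 0.74 (SE 0.10) early in Cav1-null mice and by 0.74 (SE 0.10) late in AKR/J, Deup1 of centriole assembly by 1.17 (SE 0.28) in the late phase of C57BL/6J and Dnaaf1 of dynein assembly by 1.45 (SE 0.51) in that of Cav1-null mice.

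Markers of other tissues moved in the same comparisons. The counts below are in the order AKR/J, C57BL/6J and Cav1-null. In this order 14.8%, 7.08% and 11.6% of all genes were called higher early, and 14%, 7.8% and 11.8% lower. Late, 11.6%, 7.46% and 14.5% of all genes were called higher, and 10.4%, 5.58% and 12.8% lower. Early in AKR/J, 8 of 10 tested yolk sac and liver genes and 9 of 10 erythroid genes fell, with Apob of lipoproteins (-9.03) and the embryonic globin Hbb-bh1 (-10.36) at the extremes. Early in Cav1-null mice 3 of 11 genes of meninges and stroma fell, with a median of -1.60 and Col3a1 as the largest called (-2.39, SE 0.69). Their sum was 206.9, 149.6 and 1213 CPM in Cav1-null d12 and 107.1 to 201.1 CPM on d15, and replicate 3 of d12 stood far above the other 5 libraries. Late in Cav1-null mice 7 of 11 ependymal and astroglial genes rose and 2 fell, and 8 of 9 oligodendrocyte genes rose and none fell, with Gfap of astrocytes at 3.27 (SE 0.34) and Olig1 at 1.42 (SE 0.15). Enpp2, a gene also of oligodendrocytes, rose in the same comparison. Of the erythroid genes 5, 6 and 0 rose and 3, 3 and 6 fell late. Late falls were called for 4, 0 and 0 of the 8 endothelial genes (median -0.70 in AKR/J) and 2, 0 and 2 genes of meninges and stroma, and late rises for 1, 1 and 1 and for 0, 0 and 1 of them. In AKR/J and C57BL/6J 2 ependymal and astroglial genes rose late and 3 fell in each, and 2 and 0 oligodendrocyte genes rose. In the early phase 5, 1 and 0 of the 11 ependymal and astroglial genes rose and 2, 1 and 4 fell. Of the 9 oligodendrocyte genes 3, 4 and 2 rose and 1, 0 and 0 fell, and of the 8 endothelial genes 3, 1 and 0 rose and 0, 0 and 1 fell. Of the eye genes, 1 fell late in each strain, Dct of pigment cells (-2.32, -2.95 and -2.41), and early 1, 0 and 0 rose and 0, 0 and 1 fell. Of the yolk sac and liver genes 0, 1 and 3 rose early and 2, 1 and 1 late. Of the erythroid genes 0, 0 and 4 rose early and 9, 3 and 4 fell. Of the genes of meninges and stroma 1, 0 and 0 rose early. The part of these tissues in the changes of the members was not tested.

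Genes whose pattern was most like that of Ttr were sought by Pearson's correlation of log2(CPM + 1) over the 27 libraries after the mean of each group was removed, among 16440 other genes with a mean of at least 1 CPM. The libraries share depth and tissue content, so the coefficients are descriptions. Spint2 (r = 0.87), Trpv6 (0.86), Stard10 (0.86), Cds1 (0.83) and Cubn (0.83) ranked highest. Cubn, the endocytic receptor cubilin of yolk sac and kidney, was at 14.0, 7.94 and 1.64 CPM in AKR/J d12 and at 1.46 to 5.99 CPM in all others. Among the other members Cldn2 ranked 42 (0.71), Folr1 82 (0.67), Clic6 127 (0.64) and Htr2c 364 (0.54), and Kl was last with 13527 (-0.16). Leaving out the 3 AKR/J d12 libraries was an alternative chosen after seeing the data. Slco1c1, a thyroid hormone transporter, then ranked first (0.92) and Htr2c second (0.92). Next were Kif17 (0.89), Kcne2, a potassium channel subunit of the epithelium (0.89), Gnptab (0.88) and Zdhhc22 (0.87), while Cldn2 ranked 5277 (0.24). With group means kept, the highest were Abhd6 (0.91), Sgpp1 (0.91), Lrfn5 (0.90), Zbtb8b (0.90) and Socs2 (0.90).

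The junction table, which counts reads that cross splice sites, held 13 junctions of 3 members, Enpp2 (6), Folr1 (3) and Htr2c (4), and none of the other 7. The authors removed junctions by overhang, multiple mapping and low reads, so a 0 can stand for removed reads. Across the 4 Htr2c junctions shown above, the AKR/J d12 libraries had 0 reads each, while 10 to 87 reads per library were counted on the gene. AKR/J had 23, 12 and 14 junction reads on d15 and 12, 18 and 40 on d17. C57BL/6J had 14, 15 and 2 on d12, 44, 15 and 27 on d15 and 51, 39 and 48 on d17. In Cav1-null mice there were 15, 6 and 40 on d12, 21, 30 and 15 on d15 and 50, 22 and 30 on d17, with replicate 3 of d12 again the highest of its group. Over the 6 Enpp2 junctions the AKR/J d12 libraries had 29, 42 and 38 reads, below all other libraries, of which the lowest was replicate 1 of Cav1-null d12 with 54. The 3 Folr1 junctions had 23 to 50 reads in AKR/J d12 and 21 to 95 in the other libraries. These reads come from the same libraries as the gene counts and are no independent replicate of them.

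**Figure D5:**
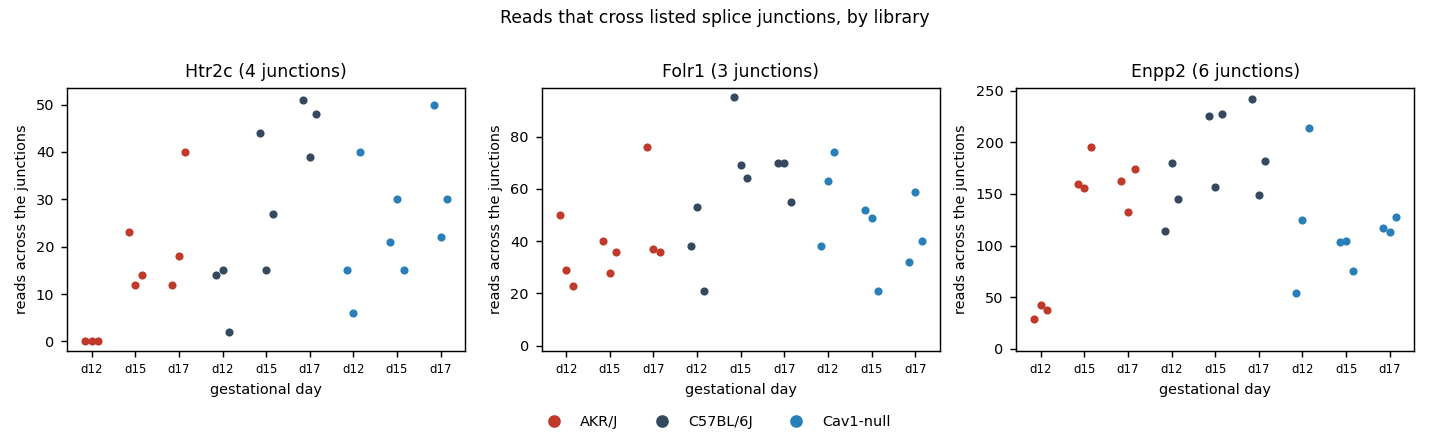
Reads crossing the listed junctions of Htr2c, Folr1 and Enpp2 (y axes) in each of the 27 libraries by strain (colour) and gestational day (x axis), with 1 point per library. The AKR/J d12 libraries are at 0 for Htr2c and at 29 to 42 for Enpp2, below all others, while for Folr1 they lie within the range of the other groups.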

How the data were processed

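Poly-A RNA of 27 whole fetal brains was sequenced as paired reads. The authors checked reads with FastQC, trimmed them with cutadapt and fastp and mapped them to GRCm39 with STAR. The counting tool, its use of strand and all versions are not given in the sources used here. The authors deposited whole read counts per gene and per splice junction without normalization. Junctions with multi-mapped reads, short overhangs or few reads were left out by the authors.

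Groups came from the strain and gestational day in the labels. In R 4.3.3, edgeR 4.0.16 kept genes with filterByExpr, scaled libraries by TMM and fitted each comparison on its own libraries (6 for a pair of groups, 12 for an interaction). A gene was called where its p, adjusted by Benjamini and Hochberg over all tested genes, was below 0.05. Dividing the size of a log2 fold change by the root of its F gave its standard error (SE). The fits were tested on simulated data with the same spread for all genes and as many rises as falls. These libraries differ from that, so the simulation checked the code and not the calls given here. The members and lists were chosen with earlier results of these data known. Named were all members, Cav1, the called gene of each list with the largest rise and fall in a comparison of days (1 result is not reported here), the 5 genes most like Ttr, and Afp, Tyrp1 and Hbb-y. Tmem72 libraries, and the genes like Ttr without the AKR/J d12 libraries or with group means kept, were described after their values were seen. Lengths, coordinates and introns are from GENCODE M39. Python 3.11.15 with pandas 2.3.3 and matplotlib 3.10.9 was used for values and plots. Alternatives were DESeq2 1.42.0, RLE size factors, library sizes alone, no filter on low counts, 1 model of all 27 libraries, a block for replicate numbers, and leaving out 1 library at a time.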

Additional observations from a re-analysis of the deposited data

Results flagged for a closer look

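Between AKR/J and Cav1-null mice, the change from d12 to d15 differed in the interaction test for Foxj1, Enpp2 and Htr2c, with differences in log2 fold change of 2.02, 1.58 and 2.53. For the change from d15 to d17 the test called Ttr, with a difference of 0.91. Of all genes 14.7% were called early and 2.13% late. With each of the 12 libraries left out in turn, Htr2c lost its call in 10 fits and Ttr in 6. Ttr was not called in 1 edgeR model of all 27 libraries either (adjusted p = 0.803). The tests of AKR/J against Cav1-null mice were added after the data were seen. In the early phase all d15 libraries lay in CPM above those of d12 in AKR/J and below them in Cav1-null mice for Foxj1 and Clic6. The log2 fold changes were 1.00 and -1.05 for Foxj1 and 0.91 and -0.99 for Clic6. In AKR/J the change of Clic6 was not called (adjusted p = 0.243 in edgeR), and Foxj1 lost its call without any 1 of the 6 libraries. With library sizes alone, the scale of CPM, the median of all genes was 0.46 in AKR/J. For Clic6 the difference itself was 1.87 (SE 0.64, adjusted p = 0.0687 in edgeR) and was not called.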

How the results depend on the processing

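No called fold change of a member turned its direction. Of 396 values of the 31 called fold changes under the alternatives, 290 were called in the same direction, 106 kept the direction without passing the threshold and 0 were reversed. Only changes called in the main fits were followed, and the alternatives reuse the same counts. A reversal was therefore unlikely from the start. Counts of called members are given here where they moved by over 1.5 times, each with the share of all genes called in that fit in brackets, and the cause was not tested. Early and late stand for d12 to d15 and d15 to d17. The DESeq2 Wald test called 5 members for AKR/J early (34.3%), 6 for C57BL/6J early (25.5%), 2 for C57BL/6J late (23%), 3 for AKR/J (6.58%) and 2 for Cav1-null mice (0.236%) against C57BL/6J on d17, 1 in the early interaction of AKR/J with C57BL/6J (4.83%), 2 in the early (2.44%) and 2 in the late (6.7%) interaction of Cav1-null mice with C57BL/6J, and 5 (20.1%) and 2 (8.42%) in the early and late interactions of AKR/J with Cav1-null mice. With library sizes alone the counts were 6 for AKR/J early (24.1%) and 1 for C57BL/6J late (15.4%). With no filter on low counts they were 5 for AKR/J early (16.4%), 1 for C57BL/6J late (8.33%), 1 for AKR/J against C57BL/6J on d17 (2.51%), 1 for the early interaction of AKR/J (1.4%) and 1 for the late interaction of Cav1-null mice (2.61%) with C57BL/6J, and 7 (9.27%) and 2 (5.12%) for the early and late interactions of AKR/J with Cav1-null mice. In 1 model of all 27 libraries they were 7 (41.1%) and 0 (10.2%) for AKR/J early and late, 1 (16.3%) and 2 (19.6%) for C57BL/6J, 1 (13.1%) and 0 (3.56%) for Cav1-null mice, 2 on d15 (22.5%) and 1 on d17 (3.6%) for AKR/J against C57BL/6J, 1 for their early interaction (7.12%), and 5 (19.9%) and 0 (0%) for the interactions of AKR/J with Cav1-null mice. With library sizes alone the share of calls that were higher was 74.72% for AKR/J early (TMM 51.37%), 68.44% for C57BL/6J late (57.21%), 30.17% and 62.81% for AKR/J against C57BL/6J on d12 and d15 (50.59% and 45.69%) and 59.22% for Cav1-null mice on d15 (45.69%).

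The main fits did not pair libraries by replicate number. In no comparison did all 3 correlations of same-numbered libraries exceed 0.1, although single values reached 0.432 (AKR/J against C57BL/6J on d17). With 3 libraries a group this check cannot exclude a pairing. With the replicate block 0 members were called for C57BL/6J early (0%), 2 for C57BL/6J late (11.9%), 1 for Cav1-null mice early (17%), 1 for AKR/J against C57BL/6J on d17 (3.16%) and 0 for the late interaction of AKR/J with Cav1-null mice (0.157%), and the other counts stayed within 1.5 times.

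With each library left out in turn, 2 to 4 members (12.4% to 43.5% of all genes) were called early and 0 to 2 (7.58% to 23.3%) late for AKR/J, 0 to 5 (0% to 29.8%) and 0 to 3 (0.767% to 33.2%) for C57BL/6J, and 1 to 6 (11.2% to 35.9%) and 2 to 3 (18.9% to 25.5%) for Cav1-null mice. Against C57BL/6J there were 0 to 4 (0.122% to 39.9%), 3 to 5 (28.2% to 37.9%) and 0 to 4 (0.258% to 26.4%) in AKR/J on d12, d15 and d17, and 0 (0% to 7.37%), 4 to 6 (49.8% to 53.7%) and 0 to 6 (0.00946% to 13.6%) in Cav1-null mice. The early and late interactions with C57BL/6J had 0 to 3 (0.0135% to 14.8%) and 0 (0.00449% to 3.7%) members for AKR/J and 0 to 2 (0.00451% to 7.3%) and 0 to 4 (0% to 26.1%) for Cav1-null mice, and those of AKR/J with Cav1-null mice had 2 to 5 (6.96% to 32.1%) and 0 to 2 (0% to 5.01%). Of the other members, 2 were among the 100 genes most like Ttr, 1 (Cldn2) with log2(CPM + 0.1), 1 (Htr2c) with group means kept and 1 (Htr2c) without the AKR/J d12 libraries. Junction shares gave no value, because no pair of listed junctions of a member shared a splice site. Depth limits Cldn2, Kl and Htr2c most, with 4, 10 and 10 reads in their lowest libraries.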
